A study of Allium sativum with 84 samples.

Results

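Among the 57561 annotated genes of garlic, 300 genes were studied here that most accessions expressed in the bulb and a few did not. Each had a median abundance of at least 10 FPKM (read fragments for each kilobase of a gene at a common sequencing depth) over 84 accessions, was listed at 0 FPKM in 1 to 8 of them, and was not among the 100 genes of highest median. The rule was met by 615 genes, and the 300 of highest median were kept. Of 13063 genes with a median of at least 10 FPKM, 12290 were above 0 in every accession and 157 were at 0 in more than 8. The members were thus chosen by their measured FPKM, so where they are missing is a description. The only tests compare countries, which the rule did not use, but they do so on the same values that chose the members.

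Garlic (Allium sativum) is a sterile crop that is propagated from its cloves, so an accession is a clone and a change in its genome is passed on without being recombined away. Clonal lines of plants can differ in which genes they carry and in which genes they transcribe, and RNA sequencing against 1 reference genome shows both as a gene without reads. A value of 0 says that no read was assigned to a gene, and whether the gene was present in that genome was not analysed here.

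The bulbs were taken in the phase of enlarging growth from plants grown together on 1 farm in Shandong, and 1 library was sequenced per accession, for which the labels give 3 bulbs. The labels separate the accessions only by collection site. China contributed 68 accessions, named by 20 sites or by no site, and 16 came from 11 other countries, namely Amrica, Australia, Canada, Eygpt, Greece, Israel, Japan, Russia, Thailand, Turkey and Ukraine, as the labels spell them. An accession is named below by its site and a number that has no meaning beyond the name, for example Canada 3, and Xiangjiang is kept apart from Xinjiang as the labels have it. Marker genes of bulb tissue could not be checked, because the gene IDs are not paired with names. In a whole bulb, fewer cells that express a gene and less of its RNA per cell cannot be told apart.

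The missing values stood far below the median levels of the same genes, though not always far below their lowest other values. The medians of the 300 genes ran from 18.2 to 444 FPKM, with a middle value of 28.998 FPKM. Reads could be recovered from the steps that single reads leave in the FPKM of a gene once libraries are put on 1 relative depth. With the largest step found for each gene, all values of all 300 genes were whole reads within 0.05. On this scale 43 to 3375 reads stood behind a member's median value. At the depth of the library that lacked it, a member at its median would have had 35.0 to 3469 reads, with a middle value of 146 over the 887 missing values. A count of 0 allows an expected number of up to 3 reads, which is 0.0865 to 8.58% of the member's median. A level below that could be missed, though values above 0 went down to 0.0311% of a member's median. This covers counting error only.

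At the edges of the rule, Asa7G03247.1 (18.16 FPKM) and Asa2G05992.1 (18.15 FPKM) were the last members kept, and Asa4G00768.1 (18.11 FPKM) and Asa6G06849.1 (18.08 FPKM) the first left out. Asa1G00091.1 and Asa7G06727.1, both at 0 in 8 accessions with medians of 61.4 and 52.69 FPKM, were just inside the limit on missing accessions. Asa4G00570.1 and Asa0G01392.1, at 0 in 9 with medians of 38.41 and 32.96 FPKM, were just outside it. Asa3G01410.1, at 0 in 3 accessions with a median of 884.6 FPKM, was left out as 1 of the 100 highest medians. Asa0G00256.1 and Asa3G03690.1, with medians of 818.4 and 816.5 FPKM, were left out because neither was at 0 anywhere.

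Loss of these genes was concentrated in few accessions. Of the 300 members 46.3% were missing in 1 accession, and 44 members were missing in 2, 22 in 3, 12 in 4, 15 in 5, 20 in 6, 33 in 7 and 15 in 8. The counts of missing members per accession fell into a high and a low part: 19 accessions lacked 23 to 83 members, and the other 65 lacked at most 8. The 19 accessions held 800 of the 887 missing values (90.2%), and 82.7% of the members were missing nowhere else. No member was missing in 25 accessions, and 36 members were missing in none of the 19. The division at 20 missing members was made after the counts were seen.

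**Figure D1:**
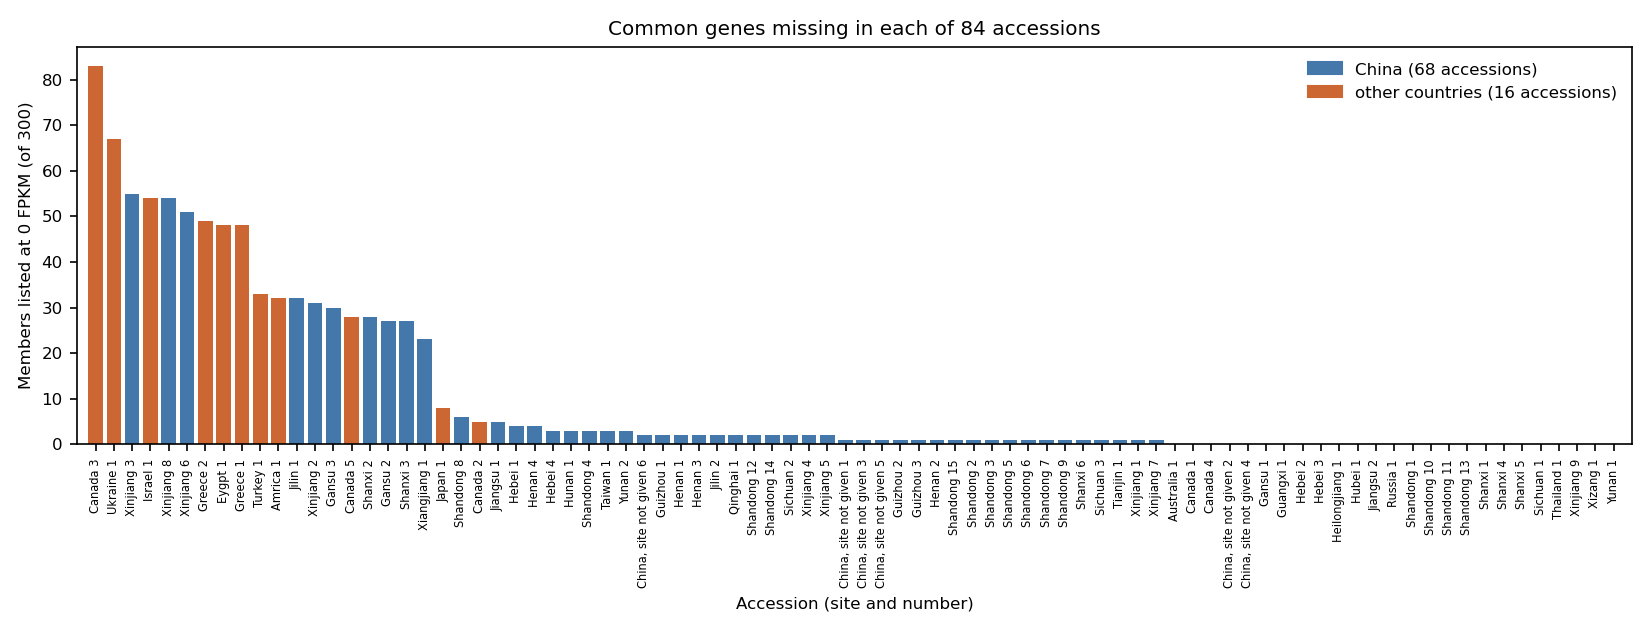
Number of the 300 members listed at 0 FPKM (y axis, from 0) in each of 84 accessions (x axis), ordered from most to fewest and coloured by country. Canada 3 lacked 83 and Ukraine 1 lacked 67, 17 further accessions lacked 23 to 55, and every other accession lacked 8 or fewer.

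Canada 3 lacked the most members, 83, followed by the accession of Ukraine with 67. Xinjiang 3 lacked 55, Israel and Xinjiang 8 both 54, Xinjiang 6 lacked 51, Greece 2 lacked 49, and Greece 1 and Eygpt both 48. Turkey lacked 33, Amrica and Jilin 1 both 32, Xinjiang 2 lacked 31, Gansu 3 lacked 30, Canada 5 and Shanxi 2 both 28, Gansu 2 and Shanxi 3 both 27, and Xiangjiang 23. After these came Japan with 8, Shandong 8 with 6, and Canada 2 and Jiangsu 1 with 5 each. The 19 overlapped the others in depth and in the number of genes detected. Their relative depth was 0.495 to 1.03 (median 0.534) and that of the others 0.449 to 0.989 (median 0.520). They detected 31485 to 34065 genes and the others 31851 to 36548, with medians of 33077 and 33063.

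Accessions of 1 site did not share a number. The 15 accessions of Shandong lacked 0 to 6 members, and those of Hebei 0 to 4 and of Henan 1 to 4. In contrast, the 9 accessions of Xinjiang ran from 0 to 55 and 4 of them were among the 19. Canada ran from 0 to 83 over 5 accessions, Shanxi from 0 to 28 over 6, and Gansu from 0 to 30 over 3, each with 2 among the 19. Jilin 1 lacked 32 and Jilin 2 lacked 2. Both accessions of Greece lacked many, and 42 members were missing in both of them. In the deposited order of the columns, 2 of the first 7 accessions, 9 of the next 16 and 8 of the last 61 were among the 19. The labels do not say whether this order stands for a batch, and its part in the losses was not tested.

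Some members were missing in the same accessions, and others in an accession or a set of their own. The 300 members had 115 different sets of lacking accessions, of which 29 were a single accession. A further 18 sets of 2 or more accessions were held by at least 2 members each and took in 93 members, and 78 sets were held by 1 member. The 7 accessions of Eygpt, Greece 1, Greece 2, Israel, Xinjiang 3, Xinjiang 6 and Xinjiang 8 made up the largest shared set, and 25 members were missing in exactly these. Canada 3 and Ukraine together lacked 10 members that no other accession lacked, and Amrica, Shanxi 2 and Turkey together also 10. The 6 accessions of Canada 5, Gansu 2, Gansu 3, Shanxi 3, Xiangjiang and Xinjiang 2 were the exact set of 8 members. Among sets of 1 accession, Canada 3 alone lacked 44 members, Ukraine 23, Jilin 1 22, Japan 5 and Xinjiang 2 4.

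**Figure D2:**
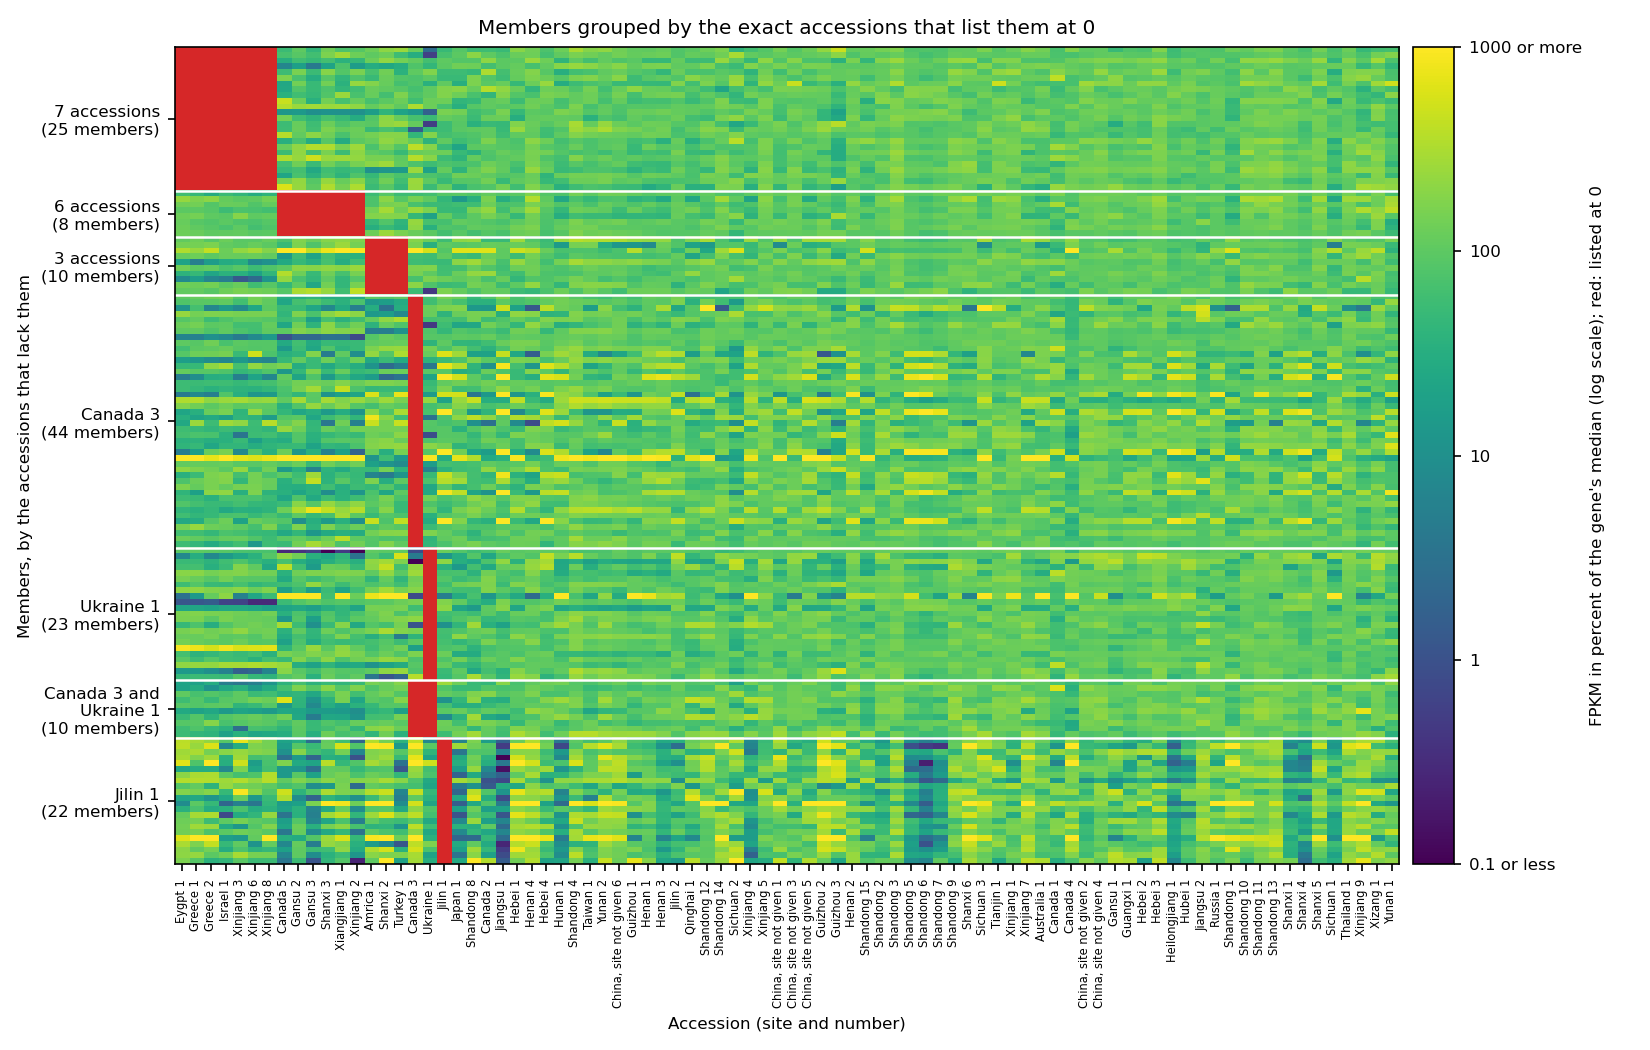
FPKM of the members of 7 sets (rows, 8 to 44 members each) in 84 accessions (columns), in percent of each gene's median on a log colour scale, with values listed at 0 in red. The red blocks are the losses by which the rows were grouped, and the rows of Jilin 1 also show low levels in Jiangsu 1 and Shandong 6.

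The sets of 7, 6 and 3 accessions also shared losses with Canada 3 and Ukraine. Missing in all accessions of the set, whatever else lacked them, were 35 members for the 7 accessions, 15 for the 6 and 22 for the 3. No member could be missing in all accessions of any pair of these sets, because the rule allows at most 8, and 1 member was missing in all 6 and in Shanxi 2 and Turkey of the 3. Ukraine shared losses with each of them: 7 of the 35, 6 of the 15 and 5 of the 22 were also missing there. Canada 3 and Ukraine had 25 members in common, which was 30.1% of those missing in Canada 3 and 37.3% of those missing in Ukraine. Canada 3 also lacked 8 of the 22 members missing in Amrica, Shanxi 2 and Turkey, 2 of the 35 and 2 of the 15. The limit of 8 leaves less room for a further accession in the larger sets, so these shares cannot be compared between sets. Jilin 1 shared 1 member with Canada 3 and none of those counted for the sets of 7, 6 and 3 accessions or for Ukraine. The exact sets also recurred among genes outside the 300 with a median of at least 1 FPKM: 161 more genes were missing in exactly the 7 accessions, 115 in the 3, 63 in the 6, 81 in Canada 3 with Ukraine, 193 in Canada 3 alone and 45 in Jilin 1 alone. Among them 40 were missing in exactly the 7 with Canada 3 and 39 in the 7 with Ukraine. A further 52 were missing in the 6 with both, and 29 in the 6 with Ukraine.

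Within the sets of 7, 6 and 3, accessions were also alike over genes outside the 300. Over 25625 genes outside the 300, the correlation of log2 levels within the 7 accessions was 0.884 to 0.971, and the highest correlation of any of them with another accession was 0.866. For the 3 accessions the values were 0.891 to 0.939 within and at most 0.878 to others. For the 6 accessions they were 0.797 to 0.967 within and at most 0.874 to others, so these 2 ranges overlapped. These are correlations across genes, which are not independent replicates, and the sets were formed from the same libraries. A loss shared by accessions this alike cannot be counted as several separate losses.

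Canada 3 went another way. The accession most like it over the same genes was Canada 4, with a correlation of 0.924, ahead of Henan 4 with 0.833, yet Canada 4 lacked none of the 300 members and Canada 3 lacked 83. On the 44 members missing only in Canada 3, Canada 4 stood at a median of 53.7% of each gene's median, with single genes from 18.9 to 533%. On the members missing only in the sets of 7, 6 and 3 accessions and in Ukraine, it stood at 108.3, 89.95, 117.3 and 124.7%. Gansu 3 and Canada 5 had still lower medians on the 44 members, 47.58 and 49.96%, but they were also low on the 25 members of the 7 accessions, at 49.8 and 55.5%, and on the 23 members of Ukraine, at 41.3 and 49.8%.

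The highest members differed widely in how they were missing. Asa0G04006.1 had the highest median, 444 FPKM. It was listed at 0 in Henan 4 and Shandong 14, and elsewhere it ran from 0.138 FPKM in Hebei 4 to 65149 FPKM in Guizhou 1. Its zeros were thus the lower end of a range without a break, with 17 accessions above 0 but under 1% of the median. Asa8G01079.1 had a median of 272 FPKM and was at 0 in Canada 3, while the other 83 accessions ran from 70.4 FPKM in Xinjiang 2 to 471 FPKM in Jiangsu 1. Asa8G04057.1, with a median of 247.6 FPKM, was at 0 in Amrica and Shanxi 2 and between 51.6 and 631 FPKM elsewhere. For both of these genes the zeros were set off from all other values. At the median, 1469 reads of the first would have been expected in Canada 3, and at least 2843 of the second in each lacking library.

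Asa4G02828.1 had a median of 227 FPKM and was at 0 in Eygpt, Greece 2, Israel, Xinjiang 3 and Xinjiang 6, and the lowest value elsewhere was 0.0743 FPKM in Greece 1, another of the 7 accessions. Asa7G07280.1, with a median of 196.8 FPKM, was at 0 in Ukraine and at 0.186 FPKM in Xinjiang 2, and it reached no more than 287 FPKM. Both were thus near 0 in an accession that did not count as missing. Asa7G00534.1 had a median of 187 FPKM, was at 0 in Jilin 1 and 3.45 FPKM in Jiangsu 1, and rose to 1401 FPKM in Xinjiang 3. Asa7G03267.1 had a median of 184 FPKM and was at 0 in Hebei 4, 1.49 FPKM in Shandong 3 and 87354 FPKM in Canada 2. Asa5G04876.1 had a median of 162 FPKM and was at 0 in Yunan 2, 0.224 FPKM in Guizhou 2 and 1447 FPKM in Russia. Asa7G03267.1 and Asa5G04876.1 thus had values under 1% of their median next to their zeros, and Asa7G00534.1 did not, though its lowest value was under 10% of the median.

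Over all 300 members, the lowest value above 0 was 0.0311 to 56.8% of the gene's median, with a middle value of 1.85%. In 190 members no accession lay between 0 and 1% of the median, and in 98 none lay between 0 and 10%. The 98 members with this wider gap varied less among the accessions that kept them: the highest kept value was 3.86 to 264 times the lowest (median 12.2), against a lowest ratio of 22.6 and a median of 590 in the other members. Part of this difference is fixed by the division itself, which bounds the lowest value. Of the 98, 97 were missing only in the 19 accessions, and of the other members 151 were. The level of 10% was chosen after the values were seen. A total of 24 members exceeded 1000 FPKM in some accession, and 6 exceeded 10000 FPKM, all 6 of them without a gap.

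The width of the gap differed between the sets. All 8 members of the 6 accessions had no value between 0 and 10% of the median, and their lowest kept value had a median of 31.3%. Of the 25 members of the 7 accessions 19 had the gap, with a median lowest value of 26.3%, and of the 10 members of Amrica, Shanxi 2 and Turkey 6 did, with 17.5%. Among members missing in Canada 3 alone 24 of 44 had it, and in Ukraine alone 14 of 23, with medians of 13.3 and 13.9%. None of the 22 members of Jilin 1, the 5 of Japan and the 4 of Xinjiang 2 had it, and their lowest kept values had medians of 1.13, 0.815 and 0.585%.

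**Figure D3:**
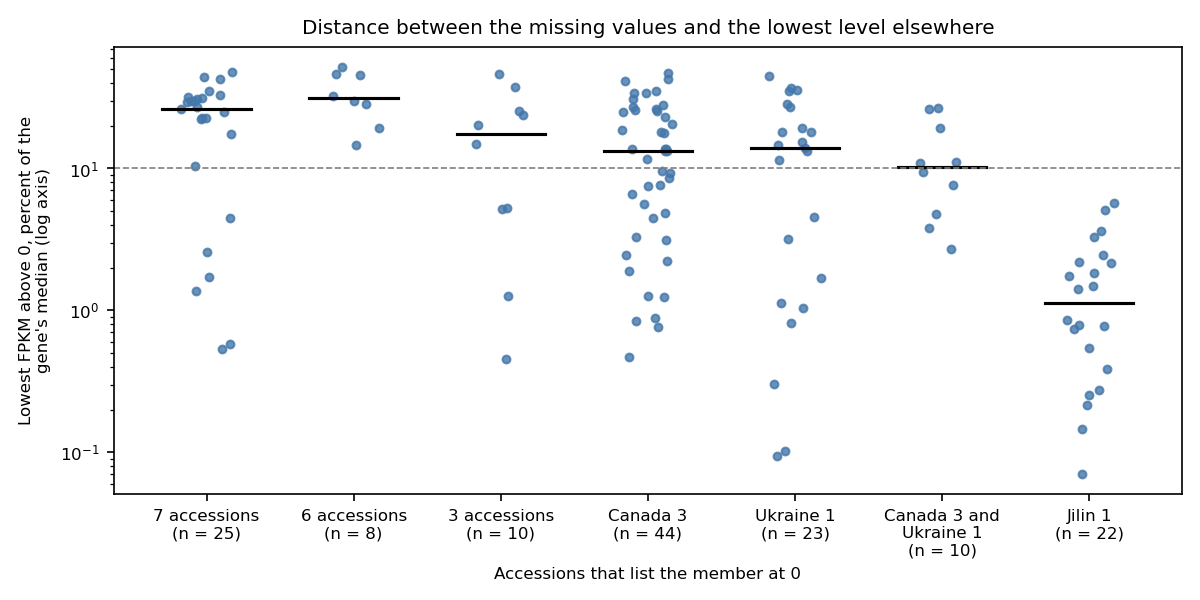
Lowest FPKM above 0 among the accessions that kept a member, in percent of the gene's median on a log axis, for each member (points) of 7 sets, with the set's median as a black bar and 10% as a dashed line. All 8 members of the 6 accessions lie above 10%, and all 22 members of Jilin 1 lie below it, with a median of 1.13%.

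The members of Jilin 1 formed a graded series of accessions. On these 22 genes Jiangsu 1 stood at a median of 1.79% of each gene's median, Shandong 6 at 5.55%, Gansu 3 at 9.26%, Hunan at 12.1% and Japan at 12.3%. At the other end Canada 3 stood at 355% and Guizhou 2 at 365%. Jiangsu 1 and Shandong 6 were also the accessions most like Jilin 1 over the genes outside the 300, with correlations of 0.977 and 0.976. The 22 members varied together over the 83 accessions that kept them, with a median Spearman correlation between pairs of 0.489 (quartiles 0.342 and 0.638). The same value was 0.323 for the 8 members of the 6 accessions, 0.246 for the 10 of Canada 3 with Ukraine, 0.147 for the 25 of the 7 accessions, 0.111 for the 44 of Canada 3, 0.0839 for the 23 of Ukraine and -0.00818 for the 10 of the 3 accessions. Over all 300 members and 84 accessions it was 0.125. All pairs share the same libraries, and the correlations are descriptions without a test.

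The 3 members of highest median in each of the largest shared sets show the values behind these counts. In the set of 7 accessions, Asa6G06850.1 had a median of 58.98 FPKM and a kept range of 1.51 FPKM, in Ukraine, to 281 FPKM. Asa7G05695.1 had a median of 52.1 FPKM and ran from 0.301 FPKM, again in Ukraine, to 157 FPKM. Asa5G02810.1 had a median of 49.5 FPKM and a kept range of 15.84 to 135.8 FPKM. Ukraine was thus near 0 for the first 2 of these genes without being listed at 0.

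In the set of Canada 3 with Ukraine, Asa3G01484.1 had a median of 115.5 FPKM and a kept range of 4.42 FPKM, in Xinjiang 3, to 300.1 FPKM. Asa3G05125.1 had a median of 48.8 FPKM and ran from 5.33 FPKM in Greece 2 to 297 FPKM, and Asa1G00950.1 had a median of 35.6 FPKM and ran from 9.34 to 96.8 FPKM. In the set of Amrica, Shanxi 2 and Turkey, Asa0G02393.1 had a median of 88.2 FPKM and a kept range of 33.3 to 325 FPKM. Of these 4 genes, Asa0G02393.1 had the widest distance between its zeros and the next accession. Asa4G04685.1 had a median of 44.5 FPKM and a kept range of 2.34 to 113 FPKM, and Asa4G04310.1 a median of 34.9 FPKM and a kept range of 8.33 FPKM to 2200 FPKM in Canada 3.

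Some members of intermediate spread were missing in mixtures of these sets. Asa4G04819.1, the highest of the members missing in 4 accessions, had a median of 117.1 FPKM and was at 0 in Amrica, Canada 3, Shanxi 2 and Turkey, with 1.80 FPKM in Canada 5 as the next value. Asa7G00495.1, the highest of those missing in 6, had a median of 57.1 FPKM and was at 0 in Ukraine and in 5 of the 6 accessions, and the sixth, Xinjiang 2, had 0.241 FPKM. Asa2G05838.1, the highest of those missing in 7, had a median of 65.4 FPKM and was at 0 in all 6 and in Ukraine, with 0.184 FPKM in Canada 3. Asa1G00091.1, the highest of those missing in 8, was at 0 in Canada 3, Canada 5, Eygpt, Ukraine, Xinjiang 2, Xinjiang 3, Xinjiang 6 and Xinjiang 8, and Xiangjiang had 0.0718 FPKM. In each of these 4 genes the value closest to 0 came from another of the 19 accessions. In contrast, Asa7G06727.1, also missing in 8, was at 0 in Guizhou 2, Henan 1, Qinghai, Shandong 4, Shandong 12, Sichuan 3, Taiwan and Yunan 2, and none of these is among the 19.

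Some neighbouring members were lost together. The number in a gene ID was taken as its place along the chromosome, and IDs that begin with Asa0G carry no number from 1 to 8, so neighbours among them may come from separate pieces of the assembly. Of 14 pairs of members that followed each other with no ID of the table between, 13 shared at least 1 lacking accession. The share among pairs that were not neighbours was not computed. With 90.2% of the missing values in 19 accessions, members far apart can share an accession too. These pairs made up 10 runs with 23 members, 3 runs of 3 genes and 7 of 2. When only neighbours with exactly the same lacking accessions were joined, there were 6 runs with 13 members.

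Asa7G05693.1, Asa7G05694.1 and Asa7G05695.1 formed the first run of 3. All were at 0 in the 7 accessions, and Ukraine was at 0 for the first 2 and at 0.301 FPKM for the third. In the accessions that kept them, Asa7G05693.1 ran from 16.76 to 128.9 FPKM (median 36.0) and Asa7G05694.1 from 17.7 to 168 FPKM (median 37.7). No accession lay between 0 and 16 FPKM for either gene. In the second run, Asa8G01489.1, Asa8G01490.1 and Asa8G01491.1 were at 0 in exactly the 7 accessions. Their kept values ran from 5.07 to 91.4 FPKM (median 23.2), from 9.79 to 106 FPKM (median 31.5) and from 6.49 to 108 FPKM (median 23.5), and Ukraine lay among them. The 2 runs therefore separated Ukraine from the 7 accessions in one place and not in the other.

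**Figure D4:**
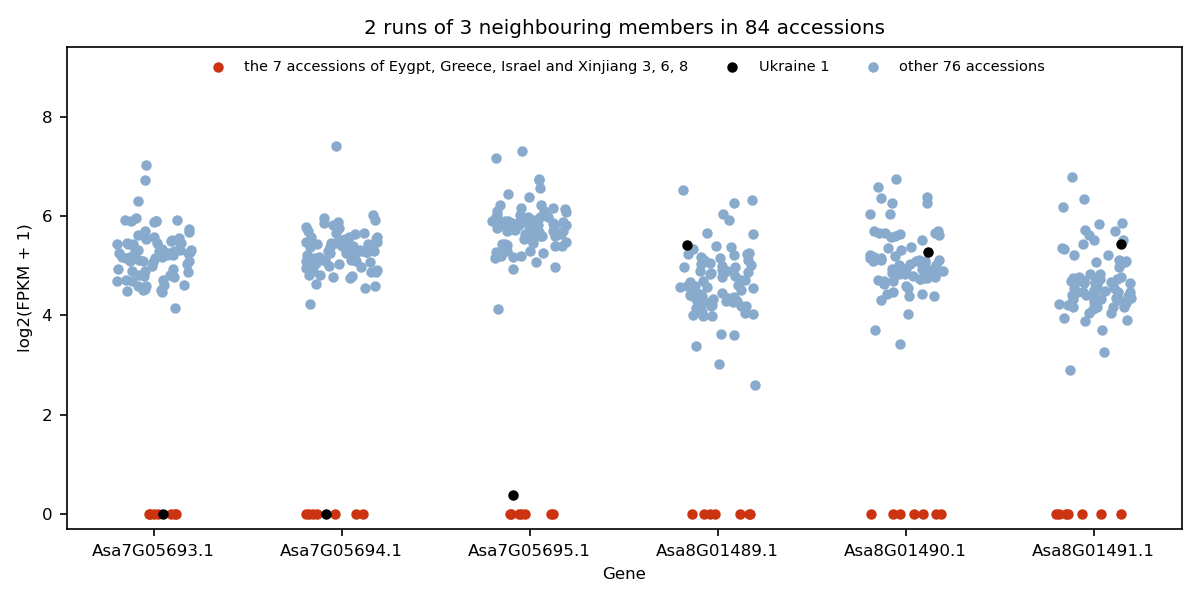
log2(FPKM + 1) of 2 runs of 3 neighbouring members in 84 accessions (points, spread sideways for sight only), with the 7 accessions that lack them in red and Ukraine 1 in black. The 7 accessions are at 0 for all 6 genes, and Ukraine 1 is at or near 0 for the 3 genes of the first run and among the other accessions for the second.

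In the third run, Asa0G04265.1 and Asa0G04267.1 were at 0 in Canada 3 and Ukraine, and Asa0G04266.1 between them was at 0 in Ukraine and at 0.295 FPKM in Canada 3. Their lowest other values included 0.953 FPKM in Gansu 3 for Asa0G04265.1 and 2.91 FPKM in Jilin 1 for Asa0G04267.1. In the fourth, Asa6G04607.1 was at 0 in Xinjiang 2 alone, with 0.235 FPKM in Gansu 2, and Asa6G04608.1 in Xinjiang 2, Canada 5 and Gansu 3, with 0.115 FPKM in Xiangjiang. All accessions named for this run belong to the set of 6. The other 6 runs were pairs, of which one was missing in the 7 accessions, one in the 6 with Ukraine, 2 included Canada 3 and one each included Hebei 1 and Japan, the pair of Hebei 1 being joined in its second gene by Canada 3.

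The genes next to members were missing more often where the member was missing. Among 290 neighbouring genes with a median of at least 1 FPKM, 239 of 912 values (26.2%) were at 0 in accessions that lacked the member, and 420 of 23448 (1.79%) in accessions that kept it. All genes with such a median were at 0 in 4.67% of the values of the lacking accessions. Without neighbours that were themselves members, the shares were 17.4 and 1.92%. By set, neighbours that were themselves members were counted again, and a gene next to several members was counted for each. The 32 neighbours of members missing in exactly the 7 accessions stood highest, at 45.5% (102 of 224 values) against 5.27% of all genes there. Of the 32, 14 were at 0 in all 7, among them members of the same set, whose zeros the rule had chosen. The 20 neighbours of the Jilin 1 members stood lowest, with 1 of 20 values at 0, against 2.04% of all genes there. For the sets between them, 5 of 25 values were at 0 for Ukraine, 5 of 38 for Canada 3, 6 of 48 for the 6 accessions and 3 of 33 for the 3.

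**Figure D5:**
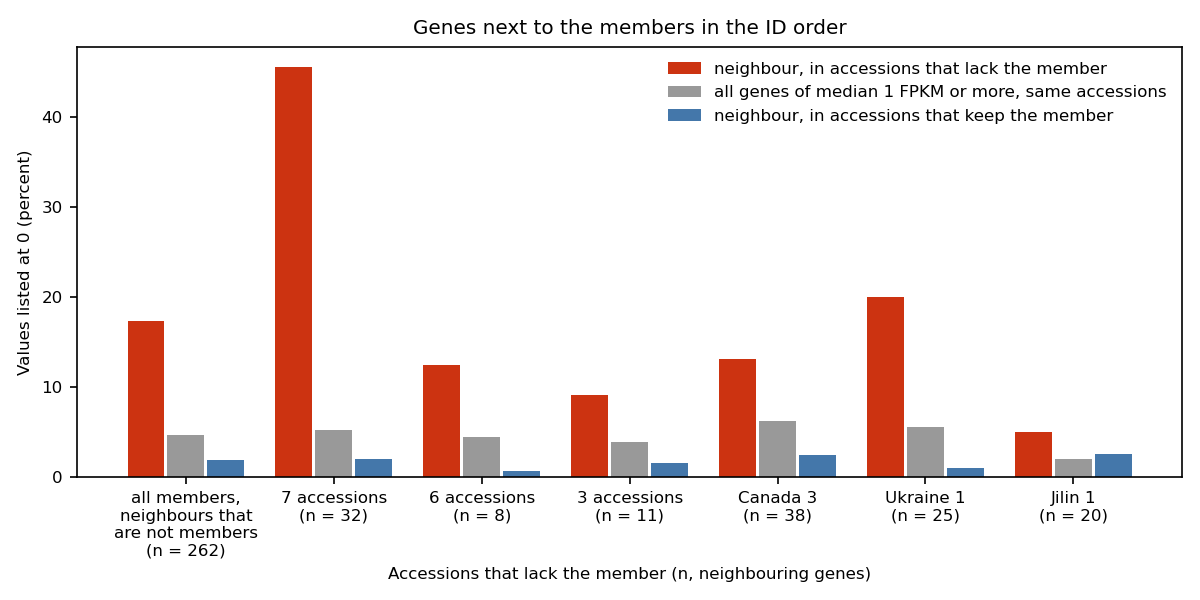
Percent of values listed at 0 (y axis, from 0) in genes next to a member, for the accessions that lack the member (red) and those that keep it (blue), beside all genes of a median of at least 1 FPKM in the lacking accessions (grey), by set. The neighbours of members of the 7 accessions stand at 45.5, 1.99 and 5.27% for red, blue and grey. The bars of single sets include neighbours that are themselves members, and the bars of all members leave them out.

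When all 4180 genes with a median of at least 1 FPKM and 1 to 8 accessions at 0 were joined in the same way, 611 of them fell into 282 runs, and some members were the highest gene of a longer run. These runs were singled out for their length. Asa0G04368.1, a member with a median of 19.3 FPKM, stood within 6 consecutive IDs, Asa0G04366.1 to Asa0G04371.1, all at 0 in Amrica, Shanxi 2, Turkey and Ukraine. Its kept values began at 8.62 FPKM. Asa7G07470.1, a member with a median of 29.1 FPKM, was the first of 5 consecutive IDs at 0 in Canada 3 alone, and the following 4 had medians of 15.3, 13.7, 6.29 and 4.65 FPKM. Both runs belong to a single set of accessions throughout, apart from Xizang and Canada 5, which were also at 0 for the first and the last of the 6 IDs.

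Members lay on all chromosomes. They were 2.06% of the genes of chromosome 1 with a median at least as high as the lowest member, and 3.52% on chromosome 8, with chromosomes 2 to 7 between these values. Among IDs beginning with Asa0G they were 7.98%, 39 of 489 genes. None of the 14 gene IDs that the study discusses for bulb growth was a member, with its AXR1-like gene counted under both printed IDs. Of the 14 IDs, 10 were above 0 in every accession. Asa4G02474.1 was at 0 in 36 accessions, Asa6G01159.1 in 6, Asa2G00245.1 in 2 and Asa6G06199.1 in 1. Their medians, in this order 0.0692, 0.607, 1.55 and 4.17 FPKM, were below the 10 FPKM of the rule, so none of them could be a member.

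The rule did not use the country, so accessions from other countries could be compared with those from China. The values compared are the same that chose the members. The median number of missing members was 30 in the 16 accessions of other countries and 1 in the 68 of China, and 9 of the 19 accessions that lacked many were from other countries and 10 from China. Of the 887 missing values, 455 were in other countries and 432 in China. A total of 104 members were missing only in other countries, 75 only in China and 121 in both. The 46.3% of members missing in 1 accession can fall in only 1 of the groups. No share over all genes was computed beside these counts, so they are not read as a country pattern. The numbers overlapped widely, from 0 to 83 in other countries and 0 to 55 in China.

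Whether a single member was missing more often in one group than in the other was tested by Fisher's exact test over 26885 genes at 0 in at least 1 and not all accessions. No member passed at an adjusted p (Benjamini-Hochberg) of 0.05, where 0.312% of all tested genes did. At an unadjusted p under 0.05 there were 78 members, all missing more in other countries, and 12.6% of all tested genes. The test uses the same zeros as the rule, which limits the p that a member can reach. With at most 8 missing accessions and 68 of 84 from China, only that direction could reach so low a p, and a member missing in 1 accession could not go below 0.19. Asa0G04415.1 had the lowest p, 7.5e-04 by the exact test (adjusted p = 0.0801), with 5 of 16 accessions of other countries and 1 of 68 from China at 0, and it is named for that.

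Levels were compared with limma on log2(FPKM + 1), with all 36007 genes above the filter of at least 1 FPKM in at least 4 accessions. By this test 52 members (17.3%) differed at an adjusted p of 0.05, beside 3.67% of all tested genes. Of these, 51 were lower in other countries, beside 2.45% of all tested genes, and 1 was higher, beside 1.23%. The change was negative in 234 of the 300 members, and its median was -0.68 against -0.05 over all tested genes. The rule asks for a high level in most accessions, of which China holds most, and for zeros in a few, so a lower level in the smaller group is favoured by the choice of members. The zeros that chose the members enter this fit, and many members share their lacking accessions, so neither the direction nor the share above all tested genes is read as a result about them. The share called did not follow the number of lacking accessions in order: it was 7.91% of members missing in 1, 22.7% in 2, 13.6% in 3, 50% in 4, 26.7% in 5, 15% in 6, 21.2% in 7 and 53.3% in 8. Within the last 61 columns 89 members were called, beside 2712 of 34783 tested genes. Within the first 23 columns no member was called, and 0 of 32446 tested genes were, with 36 members at an unadjusted p under 0.05.

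The largest falls were in Asa4G04819.1, Asa8G03654.1 and Asa4G02727.1, and the zeros that chose these members enter their fits. Asa4G04819.1 ran from 0 to 227 FPKM (median 13.3) in other countries and from 0 to 207 FPKM (median 127) in China, a change of -2.21 ± 0.51 (SE, limma adjusted p = 0.00652), with 11 of 16 accessions below the median of China. Asa8G03654.1 ran from 0 to 180 FPKM (median 82.4) in other countries and from 0 to 214 FPKM (median 130.2) in China, a change of -2.20 ± 0.49 (limma adjusted p = 0.00471), with 13 of 16 below the median of China. In both genes the groups overlapped over almost their whole range.

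Asa4G02727.1 ran from 0 to 90.7 FPKM (median 0.742) and from 0 to 70.5 FPKM (median 29.5), a change of -1.96 ± 0.51 (limma adjusted p = 0.0162), with 11 of 16 below. The gene that rose, Asa0G05601.1, had 3.94 to 166 FPKM (median 55.2) in other countries and 0 to 137 FPKM (median 14.6) in China, a change of 1.46 ± 0.43 (limma adjusted p = 0.0357), with 14 of 16 accessions above the median of China. It was at 0 in Hunan and Xinjiang 4 and so is a member that other countries kept.

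The number of calls changed with the accessions included. No call of these 4 genes held within the first 23 columns, where 0 of 32446 tested genes were called (limma adjusted p = 0.787 for Asa4G04819.1, 0.852 for Asa8G03654.1, 0.869 for Asa4G02727.1 and 0.919 for Asa0G05601.1). Without the 7 accessions of Eygpt, Greece, Israel and Xinjiang, a choice made after seeing the data, 22 members were called, beside 281 of all genes. Of the 22, 18 were among the 52. Of the 4 genes only Asa8G03654.1 was called, with a change of -1.23 ± 0.275 (SE). The change of Asa4G04819.1 was then -2.10 ± 0.57 (limma adjusted p = 0.0505), close to its value over all accessions, and its call held with each of the 84 accessions left out in turn. Its zeros, in 3 accessions of other countries and 1 from China, chose it as a member and enter these fits, so this is no independent support. Without the 7 accessions the change was -1.51 ± 0.52 for Asa4G02727.1 (limma adjusted p = 0.141) and 0.95 ± 0.45 for Asa0G05601.1 (limma adjusted p = 0.353). Asa0G05601.1 also missed the threshold without any 1 of Canada 3, Ukraine, Eygpt, Greece 1, Greece 2 or Israel, with the smaller pseudocount and with the column range as a covariate, and Asa4G02727.1 without Greece 2 and with that covariate. Leaving out single accessions gave 28 members without Greece 2, 33 without Greece 1 or without Eygpt and 81 without Thailand. The calls over all genes moved too, to 533, 605, 570 and 2080 in this order, from 1323 with all accessions. Since the accessions within the sets of 7, 6 and 3 are alike across the transcriptome, the p-values treat as independent what may be related. They measure the spread among these accessions.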

How the data were processed

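RNA sequencing of garlic bulbs gave 1 library for each of 84 accessions, for which the labels state 3 bulbs. Clean reads were aligned by the authors to the reference genome of garlic (HISAT2, 2.2.1.0 in the submitters' processing notes). The deposited values are FPKM that the authors computed per gene. Neither the read counter nor the scaling total was named there, so both are not given in the sources used here. Every column was matched to a sample by its title, and 0 columns belonged to other samples. Each accession was grouped by the collection site of its label. The study has other numbers of accessions and pooled plants in its text, which could not be settled. Its genetic groups were not used here.

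The members and lists were chosen with earlier results of these data known. Members, exact sets of lacking accessions and runs of IDs are descriptions. Named genes are the 8 of highest median, the highest for each number of lacking accessions, the genes of the 4 longest runs, the 3 highest in the 3 largest shared sets, the largest rises and falls by country and the genes at the rule's limits. Others are named in counts of 5 or fewer or where said to be chosen after their values were seen. Countries were compared with limma 3.58.1 under R 4.3.3, with a trend on intensity, on log2(FPKM + 1), which understates changes of low genes, and with Fisher's exact test per gene, both two-sided with Benjamini-Hochberg adjustment over all tested genes. Relative depth was recovered from the commonest ratio of low FPKM values between libraries and ran from 0.449 to 1.03. Both tests were also tried on simulated data in which accessions were independent. In the limma trial, 82% of 100 genes changed by 1 log2 unit and 97% of 100 changed by 2 were recovered, with 13 false calls. Tables and figures used pandas 2.3.3, Matplotlib 3.10.9, SciPy 1.17.1 and NumPy 2.4.6 under Python 3.11.15. Alternatives were another pseudocount, filter, scaling, limits of the rule, column ranges, accession weights and each accession left out.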

Additional observations from a re-analysis of the deposited data

Results flagged for a closer look

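The relative depth of 3 libraries lay far from that of the other accessions of the same site: 0.6037 in Hebei 4, 0.6838 in Shanxi 4 and 0.9893 in Xinjiang 9. Tested were 18 groups of values of 4 to 10 accessions, each a measure at a site. The measures were relative depth, the number of missing members and the level of the members kept, and all 3 marks fell on relative depth. Chance marks about 1 in 20 such groups. Of these libraries Hebei 4 lacked 3 members, and Shanxi 4 and Xinjiang 9 lacked none.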

How the results depend on the processing

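Of all genes 1.07% met the rule, and 0.45% with a median of at least 20 FPKM. Leaving out single accessions gave 0.961 to 1.09%. The 19 accessions that lacked more than 20 members stayed 19 under the other definitions of missing and scaling, were 6 where at most 4 accessions could be at 0, and were 18 to 19 with single accessions left out. The 10 runs became 6 where the lacking accessions had to be exactly the same and 282 over all genes with a median of at least 1 FPKM. In the limma comparison 17.3% of the members and 1323 of all genes were called. In columns 24 to 84 alone these were 29.7% and 2712, in columns 1 to 23 alone 0% and 0, with accession weights 45.3% and 4662, and without the 7 accessions, chosen after seeing the data, 7.33% and 281. With single accessions left out they ran from 9.33 to 27.0% and from 533 to 2080. Quantile normalization turned the split of all called genes from 442 higher and 881 lower to 689 higher and 659 lower, and left the members at 1 and 51. By Fisher's exact test 0 members were called, 1 where absent meant under 0.5 FPKM, and 0 to 1 with single accessions left out, the 1 being without Xinjiang 3. Without the 7 accessions it was 0. The cause of these changes was not tested. The change of none of the 4 genes named in the country comparison changed sign. No paired analysis was possible because the labels give no replicate numbers, and those used here follow the accession order.

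A missing member is a gene without reads in 1 library, and no second library of an accession was there to repeat it. At the lowest medians 3 reads are up to 8.58% of the level.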

Other observations

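Several members with no gap between 0 and their other values reached very high levels, and the 6 that exceeded 10000 FPKM were singled out for that. Asa0G04006.1, Asa0G02391.1 and Asa7G03275.1 were highest in Guizhou 1, at 65149, 40390 and 20999 FPKM, and Asa7G03267.1 and Asa7G03272.1 in Canada 2, at 87354 and 15281 FPKM. Asa2G05973.1 reached 17242 FPKM in Shanxi 6. Asa7G03267.1, Asa7G03272.1 and Asa7G03275.1 have IDs close to each other on chromosome 7. Of the 6, Asa0G04006.1, Asa0G02391.1, Asa7G03267.1 and Asa7G03275.1 were missing only in accessions outside the 19, and Hebei 4 was among the lacking accessions of 3 of these.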
